A study of Mus musculus with 31 samples.

Results

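Colonic gene expression was compared between mice given sodium acetate by rectal infusion and mice given saline, both on a low-fat diet (LFD). The comparison rests on 7 of the 31 arrays of the series, chosen by their titles: 3 of acetate on LFD and 4 of saline on LFD. All mice were male C57Bl/6J, aged 13 weeks at collection, and ate a semi-synthetic diet with palm oil as its fat, which supplied 10% of energy. The acetate mice received 80 µL of an isotonic saline solution with 100 mM sodium acetate on 6 consecutive days, and the saline mice received the same volume without the acid. Every mouse of both groups was sedated for each infusion. The colon was taken 4 h after the last infusion, freed of adhering fat, opened and rinsed, and its lining was scraped for RNA. Infused acetate came on top of the acetate that resident bacteria make, and luminal acetate values were not analysed here. The labels name 6 mice per group without saying which of them the arrays hold, so p-values measure the spread between these samples. Acetate was also set against propionate on LFD and butyrate on LFD (100 mM each, 4 arrays each), and against its own effect on a high-fat diet (HFD, 45% of energy from fat) in 4 acetate and 4 saline arrays.

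Acetate is the shortest of the main short-chain fatty acids and the one gut bacteria release in the largest amount from fibre. Colonocytes take it up through monocarboxylate transporters, sense it at the receptors Ffar2 and Ffar3, and join it to coenzyme A. The resulting acetyl-CoA feeds the citric acid cycle, the synthesis of fatty acids and cholesterol, and the acetylation of histones. Butyrate is the fuel that colonocytes prefer, and much of the acetate passes on to the liver and other tissues.

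Some arrays stood apart by the cell types in the scraping, as the plot of cell type transcripts by array shows. The levels of 17 colonocyte genes averaged 11.36 to 11.44 on the acetate arrays and 11.38 to 11.51 on the saline arrays, in log2 intensity. Genes of the small-intestinal enterocyte (15 tested of 16 listed) averaged 7.46, 7.52 and 7.63 on the acetate arrays, against 7.66, 9.03, 8.83 and 7.41 on saline arrays 1 to 4. Saline arrays 2 and 3 were thus apart from the other 5, and 2 arrays outside this comparison, propionate on LFD 2 and saline on HFD 2, were as high. Paneth cell genes averaged 5.40, 5.24 and 5.01 under acetate, against 4.71, 6.19, 7.41 and 5.16 under saline. Adipocyte genes averaged 5.17, 5.51 and 5.27 under acetate, against 6.44, 6.12, 5.09 and 5.03 under saline, so that saline arrays 1 and 2 were the high ones. Smooth muscle genes, all 10 with a mean difference below 0, averaged 5.35, 5.29 and 5.50 under acetate, against 5.46, 5.76, 6.02 and 5.29 under saline. In scrapings of mixed tissue, fewer cells of a type and less RNA per cell cannot be told apart.

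**Figure D1:**
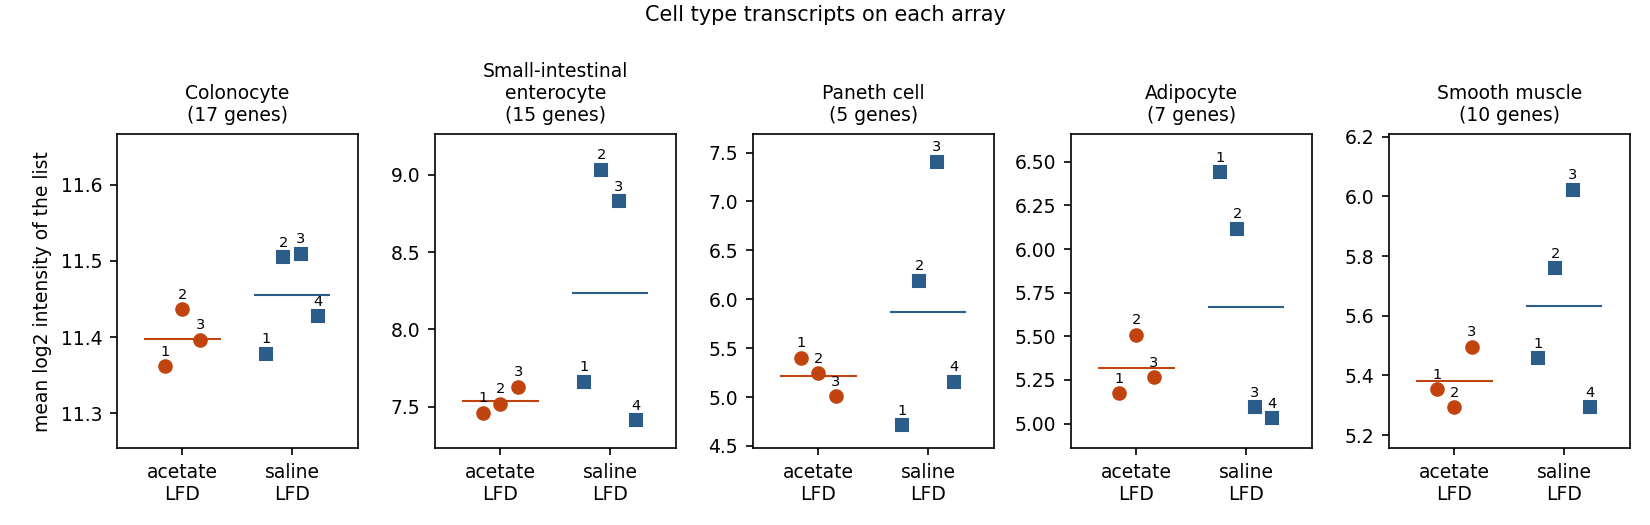
Mean log2 intensity of the tested members of 5 cell type lists on each array, with acetate on LFD (circles) left of saline on LFD (squares), a line at the group mean and the replicate number above each point. Saline arrays 2 and 3 are high in small-intestinal and Paneth cell transcripts and saline arrays 1 and 2 in adipocyte transcripts, while the colonocyte genes span 11.36 to 11.51.

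No gene differed between acetate and saline on LFD at the threshold used, a Benjamini-Hochberg adjusted p under 0.05 from limma over the 12795 genes tested (0 genes, 0%). The smallest adjusted p was 0.999975. At an unadjusted p under 0.05 there were 193 genes (1.51%), 97 of them higher and 96 lower under acetate, where evenly spread p-values would give 639.75. The median gene differed by 0.058 in log2 intensity in either direction. The 95% confidence interval of the difference reached a median of 0.23 to each side of the estimate. It lay wholly within 0.5 of no difference for 11458 genes (89.6%) and within 1 for 12651 genes (98.9%). For 26 of the 40 gene lists described, the sign of the median difference turned when 1 of the 7 arrays, not the same one for every list, was left out. The median kept its sign without each array, without the 4 arrays rich in small-intestinal RNA and without saline arrays 1 and 2 for 10 lists: mitosis, cell cycle brakes, interferon response, tight junction, antimicrobial, lipid absorption, small-intestinal enterocyte, colonocyte, smooth muscle, and macrophage and dendritic cell genes. Its size was not always kept. Without those 4 arrays it went from -0.28 to -0.0088 for smooth muscle and from -0.05 to -0.01 for colonocyte genes. For lipid absorption it went from -0.62 to -0.09, and for mitosis from -0.23 to -0.30. Arrays of the same group correlated with an r of 0.981 to 0.992 (9 pairs), and arrays of different groups with an r of 0.983 to 0.994 (12 pairs).

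Differences of more than 1 in log2 intensity were found for 14 genes, all of them lower under acetate. Most are genes of the small intestine, among them Apoa1 and Apoa4, apolipoproteins of chylomicrons, Mttp, which loads lipid onto them, Npc1l1, the cholesterol uptake transporter, and the Paneth cell genes Defa24 and Lyz1. For Apoa4 the probe set used differed by -1.62 and a second one by 0.02. Apoa1 stood at 6.49, 7.39 and 6.48 on the acetate arrays, against 5.99, 11.06, 10.83 and 6.17 on the saline arrays. Its high values were those of saline arrays 2 and 3, the arrays with the small-intestinal transcripts. Clca4b, a chloride channel accessory gene picked out after its values were seen, differed by -1.59 ± 0.57 (SE). It stood at 7.66, 8.89 and 7.96 under acetate, against 8.56, 10.31, 10.36 and 9.81 under saline. The lowest saline array lay below the highest acetate array, and the difference was -1.01 without the 4 arrays rich in small-intestinal RNA. Its close relative Clca4a differed by -0.48 ± 0.26 with no overlap between the groups, and signal from one may reach the probes of the other.

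The genes that carry acetate across the epithelium differed little. Of 14 listed, 10 were tested; 3 lay above and 7 below saline, with a median difference of -0.05 beside -0.00015 over all genes, and none had an unadjusted p under 0.05. Without the 4 arrays rich in small-intestinal RNA, 7 lay above and 3 below saline, with a median of 0.015. Slc16a1, the main monocarboxylate transporter MCT1, stood at 9.98, 10.13 and 10.04 under acetate, against 10.38, 10.11, 10.27 and 9.96 under saline, a difference of -0.13 (95% interval -0.40 to 0.14). Slc5a8, the sodium-coupled monocarboxylate transporter of the colonic surface, stood at 10.91, 11.14 and 11.15 under acetate, against 11.12, 11.04, 11.22 and 11.01 under saline. The groups overlapped for both transporters, and the interval for Slc5a8 ran from -0.21 to 0.15. Bsg, the chaperone that brings MCT1 to the membrane, differed by 0.05 ± 0.07 (SE). Slc26a3, the chloride/bicarbonate exchanger, differed by -0.07 ± 0.17, and Slc9a3, the sodium/proton exchanger, by 0.19 ± 0.21. The lowest member was Slc26a6, another anion exchanger, at -0.50 ± 0.27. Its values were 4.53, 4.46 and 4.38 under acetate, against 4.33, 5.71, 5.23 and 4.55 under saline, with saline arrays 2 and 3 again the high ones. Aqp8, the colonocyte water channel, spanned 10.24 to 10.93 under acetate and 10.69 to 11.34 under saline.

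The genes of acetate sensing were likewise close to saline. Of 15 listed, 10 were tested, with 3 above and 7 below saline and a median difference of -0.02. Ffar2, a receptor for acetate and propionate that couples to inhibitory and Gq proteins, stood at 6.64, 6.15 and 6.94 under acetate, against 6.77, 6.77, 6.44 and 6.72 under saline. The acetate arrays thus held both the lowest and the highest value of the 7, and the difference was -0.10 (95% interval -0.43 to 0.24). Ffar3, which responds more to propionate and butyrate, stood at 4.80, 4.66 and 4.77 under acetate, against 4.95, 4.73, 4.63 and 4.75 under saline. Olfr558, a mouse olfactory receptor, differed by 0.13 ± 0.21 (SE). The G protein subunits and arrestins downstream (Gnai1, Gnai2, Gnai3, Gnaq, Gna11, Arrb1 and Arrb2) lay between -0.07 and 0.13.

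Of the genes that make, use or release acetyl-CoA, 14 of 20 listed were tested, with 6 above and 8 below saline and a median difference of -0.02. Acss2, which activates acetate in the cytosol and nucleus, stood at 8.57, 8.88 and 8.80 under acetate, against 8.45, 8.68, 8.97 and 8.66 under saline. Acss1, the mitochondrial enzyme for the same step, differed by 0.05 ± 0.13 (SE), and Acly, which makes acetyl-CoA from citrate, by -0.04 ± 0.12. None of the 3 intervals reached 0.5 to either side. The one member whose groups did not overlap was Acot12, a thioesterase that splits cytosolic acetyl-CoA into acetate and coenzyme A. It stood at 4.41, 4.61 and 4.12 under acetate, against 4.83, 4.75, 4.86 and 4.81 under saline, a difference of -0.42 ± 0.16 (unadjusted p = 0.0133, limma). Of all genes, 0.805% had every acetate array below every saline array, and 1.28% every acetate array above. Acot12 was dim, close to the log2 level of 4.32 that a gene had to reach on at least 3 arrays to be tested. The plot of the 3 acetate lists shows that its interval alone among the 34 stays on one side of 0.

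**Figure D2:**
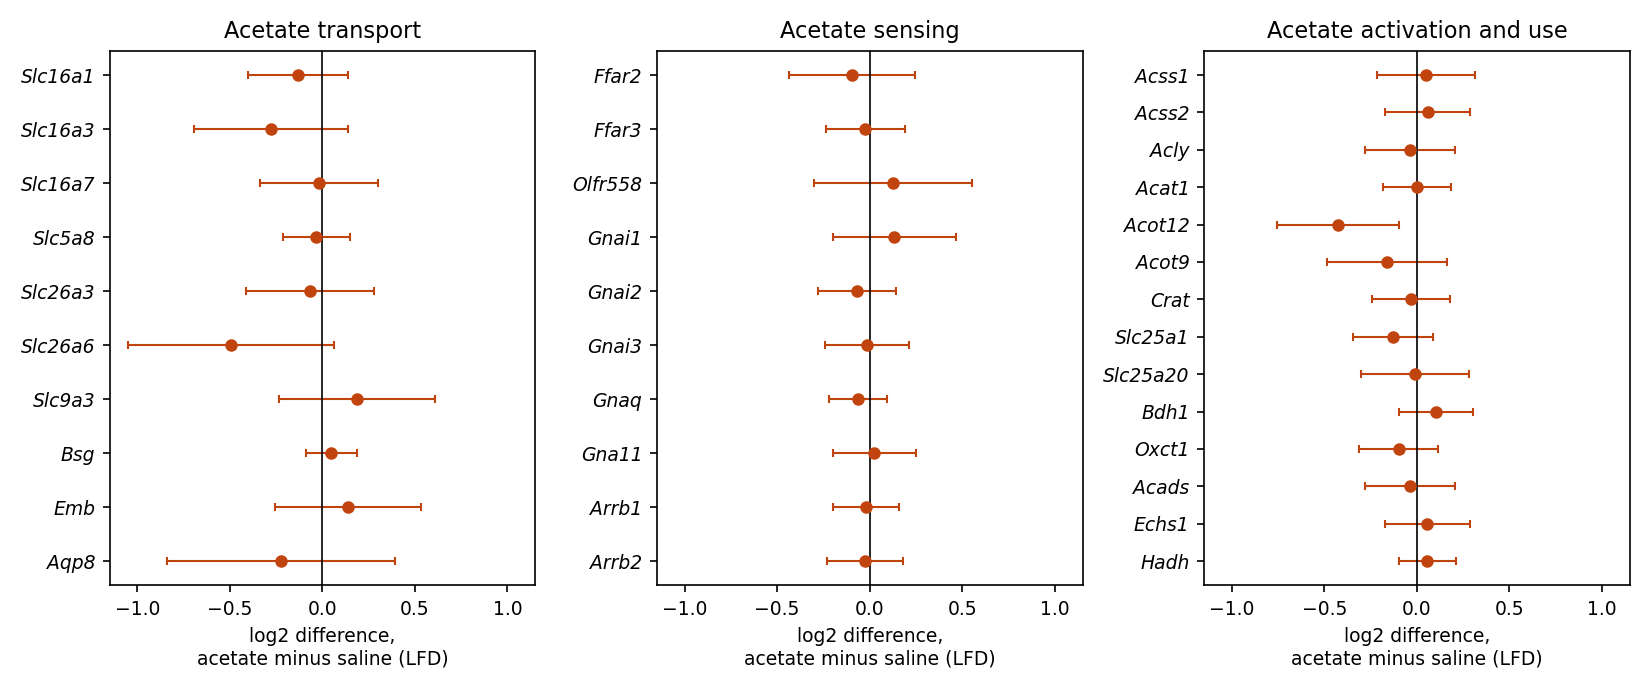
Log2 difference, acetate minus saline on LFD, with its 95% confidence interval from limma, for the tested genes of acetate transport (10), sensing (10) and activation and use (14). Acot12 is the one gene whose interval does not include 0, and no gene passed the adjusted threshold.

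Histone deacetylases, acetyltransferases and sirtuins, which write and remove acetyl groups, showed no common direction: 10 of the 17 tested lay above and 7 below saline, with a median of 0.02. Hdac3, the catalytic subunit of a nuclear corepressor, differed by 0.05 ± 0.06 (SE) and Hdac1 by 0.10 ± 0.11. Citric acid cycle genes (8 of 15 above) had a median of 0.02, and glycolysis genes (3 of 14 above) one of -0.05. Idh3b, a subunit of isocitrate dehydrogenase, differed by 0.13 ± 0.07 and Cs, citrate synthase, by -0.07 ± 0.08. Pkm, pyruvate kinase, differed by -0.14 ± 0.10, and by -0.03 ± 0.09 on a second probe set.

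Acetate given in the lumen is known for its link to the hormones of enteroendocrine L cells. Of the 20 enteroendocrine genes tested, 12 lay above and 8 below saline, with a median of 0.02. Gcg, the precursor of glucagon-like peptide 1, stood at 9.06, 8.44 and 8.96 under acetate, against 8.58, 8.56, 8.55 and 8.60 under saline. Acetate arrays 1 and 3 were above all saline arrays and array 2 below all of them, and the difference was 0.25 ± 0.15 (SE), with a 95% interval of -0.06 to 0.56. Pyy, peptide YY, stood at 9.54, 9.90 and 9.80 under acetate, against 9.80, 9.69, 9.81 and 9.95 under saline, a difference of -0.07 ± 0.11. Chga, chromogranin A of the secretory granule, differed by 0.06 ± 0.16, and Sct, secretin, by -0.16 ± 0.20.

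The genes with the smallest unadjusted p differed by between 0.21 and 0.56 in log2 intensity, and the plot of these 24 genes gives their values on every array. Mesp2, a transcription factor of somite segmentation, stood at 4.61, 4.48 and 4.46 under acetate, against 4.21, 4.05, 4.10 and 4.20 under saline. The groups did not overlap, and the difference was 0.37 ± 0.10 (SE, unadjusted p = 0.00134, limma). Myc, the growth-promoting transcription factor of the crypt base, stood at 8.70, 8.11 and 8.25 under acetate, against 7.52, 7.82, 8.25 and 7.93 under saline. Acetate array 1 was the highest and saline array 1 the lowest, the groups overlapped, and the difference was 0.47 ± 0.16. Wdr77, the partner of the arginine methyltransferase Prmt5, stood at 7.87, 7.74 and 7.85 under acetate, against 7.28, 7.72, 7.55 and 7.69 under saline, with no overlap. Mesp2 was dim, with a mean of 4.51 under acetate and 4.14 under saline. So were other genes of smallest p above saline. They included Fcrlb, an Fc receptor-like gene of B cells (0.29), Aym1 (0.36), Crispld2, a secreted protein that binds endotoxin (0.43), Prickle1 of planar cell polarity (0.34), Ckm, muscle creatine kinase (0.30), and Ier5l (0.32). A second probe set for Ckm gave 0.02. Of the 97 genes higher at an unadjusted p under 0.05, 52 had a mean log2 level under 5, against 26 of the 96 lower ones and 2275 of all 12795.

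Below saline, Carhsp1, an RNA-binding protein that stabilises tumour necrosis factor mRNA, had the smallest p. It stood at 9.19, 9.14 and 9.42 under acetate, against 9.65, 9.61, 9.47 and 9.46 under saline, a difference of -0.30 ± 0.08 (SE, unadjusted p = 0.00124, limma). The groups did not overlap, but a second probe set for Carhsp1 differed by -0.13 ± 0.12. Pemt, which methylates phosphatidylethanolamine to phosphatidylcholine, stood at 5.34, 5.52 and 5.62 under acetate, against 5.64, 5.71, 5.98 and 5.93 under saline. Its groups did not overlap either, at -0.32 ± 0.09. Gdpd3, a lysophospholipase D, stood at 6.47, 6.39 and 6.28 under acetate, against 6.75, 6.72, 6.60 and 6.65 under saline. The phospholipid list as a whole, Pemt and Gdpd3 included, did not share that direction: 12 of 22 tested lay above saline, with a median of 0.007. Slc23a4, a nucleobase transporter in the rat, differed by -0.56 ± 0.17, and by -0.24 without the 4 arrays rich in small-intestinal RNA. Fbln5, a protein of elastic fibres, differed by -0.41 ± 0.13, Dedd2, a death effector domain protein, by -0.27 ± 0.09, and Katna1, the microtubule-severing katanin, by -0.21 ± 0.07. Fbln5 was dim, with a mean of 4.17 under acetate and 4.58 under saline, and its groups overlapped. Its difference was -0.28 without saline array 4.

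**Figure D3:**
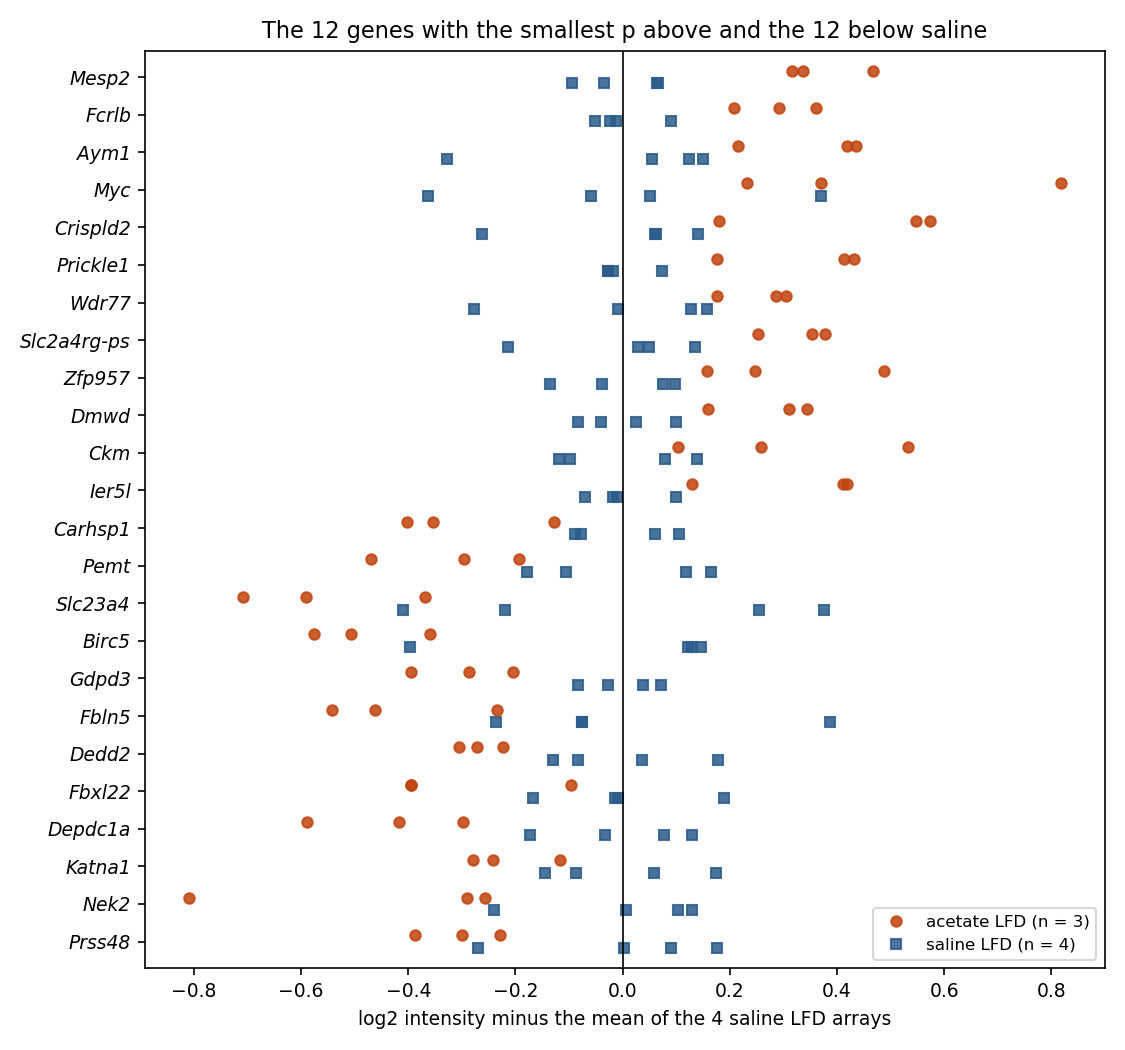
Log2 intensity on each array minus the mean of the 4 saline arrays, for the 12 genes of smallest unadjusted p above saline (top) and the 12 below it (bottom), with acetate on LFD as circles above saline on LFD as squares. For 10 of the 12 upper genes, Mesp2 and Wdr77 among them, and for 6 of the 12 lower ones the circles and squares do not overlap. The genes were chosen by p on these same arrays, which favours genes without overlap. Over all genes tested the shares without overlap are 1.28% above and 0.805% below saline. No gene passed the adjusted threshold.

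Ranked by size instead, the genes without overlap above saline were led by Blk, a Src-family kinase of B cells (0.44), Crispld2, Slc2a6, a sugar transporter (0.39), Mesp2, Nynrin (0.36, and 0.17 and 0.13 on its other probe sets), Aym1, Arg1, arginase (0.35), and Prickle1. Slc2a6 stood at 6.16, 5.53 and 5.49 under acetate, against 5.39, 5.41, 5.14 and 5.41 under saline, so that acetate array 1 made most of its difference. Below saline the largest were G6pc, glucose-6-phosphatase (-1.01), Lgals1, galectin-1 (-0.56), Fabp1, a fatty acid binding protein of the small intestine and liver (-0.54), and Clca4a. G6pc stood at 3.22, 3.28 and 3.32 under acetate, against 3.60, 5.50, 4.61 and 3.45 under saline. Its high values lay on saline arrays 2 and 3, and its other values lay under the filter level of 4.32. Without the 4 arrays rich in small-intestinal RNA, G6pc differed by -0.25. Arg1 and Fabp1 were dim too, with means of 4.30 and 4.03 under acetate and 3.96 and 4.57 under saline. Lgals1 stood at 6.13, 6.63 and 6.55 under acetate, against 7.32, 6.94, 6.66 and 7.07 under saline, a spread that did not follow saline arrays 2 and 3.

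Genes of mitosis lay almost wholly below saline. Of 27 listed, 23 were tested; 22 lay below saline and 1, Kif23, at 0.003 ± 0.146 (SE), with a median of -0.23, and 3 had an unadjusted p under 0.05, where 1.51% of all genes did. The list averaged 6.64, 6.47 and 6.88 on the acetate arrays, against 6.80, 6.95, 6.74 and 7.15 on the saline arrays, so the array means overlapped. Birc5, survivin, stood at 5.30, 5.37 and 5.52 under acetate, against 6.02, 5.48, 6.01 and 6.00 under saline. Acetate array 3 lay just above saline array 2, and the difference was -0.48 ± 0.15 (SE). Bub1, a kinase of the spindle checkpoint, stood at 5.71, 5.38 and 6.34 under acetate, against 6.07, 6.40, 6.17 and 6.66 under saline, a difference of -0.52 ± 0.25. Ttk, the checkpoint kinase Mps1, stood at 4.75, 4.72 and 5.16 under acetate, against 5.22, 5.37, 4.98 and 5.36 under saline. For both kinases acetate arrays 1 and 2 were the lowest of the 7 and array 3 lay among the saline arrays. Mki67, the proliferation marker Ki-67, differed by -0.33 ± 0.18, and Prc1, which bundles the central spindle, by -0.25 ± 0.13. Outside the list, the mitotic genes Nek2, a centrosome kinase, and Depdc1a differed by -0.45 ± 0.16 and -0.43 ± 0.15, both without overlap. Both were picked by small p and lack of overlap on these same arrays, so they add no separate evidence. Of all genes, 0.805% had every acetate array below every saline array. Depdc1a was dim, with a mean of 3.90 under acetate and 4.33 under saline. Nek2 stood at 6.17, 5.65 and 6.20 under acetate, against 6.59, 6.46, 6.22 and 6.56 under saline. Without acetate array 2, which was low for these genes, the difference was -0.27 for Nek2, -0.18 for Mki67 and -0.31 for Bub1.

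Without the 4 arrays rich in small-intestinal RNA, all 23 mitosis genes lay below saline, with a median of -0.30. Leaving out 1 array of the comparison at a time moved the median between -0.33 and -0.14. Replication genes, which act earlier in the cycle, had 15 of 20 tested below saline and a median of -0.11, which was 0.02 without acetate array 1. Pole, a DNA polymerase subunit, stood at 6.08, 6.16 and 6.99 under acetate, against 6.32, 6.98, 6.38 and 6.86 under saline. Tk1, thymidine kinase, differed by -0.22 ± 0.14 and by -0.42 ± 0.17 on a second probe set. Brakes on the cycle, such as the inhibitor Cdkn2c (-0.28 ± 0.14, no overlap), had 13 of 15 below saline with a median of -0.06. Stem and progenitor genes went the other way, with 13 of 16 above saline and a median of 0.11. Axin2, a target of Wnt signalling, stood at 7.21, 7.15 and 7.12 under acetate, against 6.72, 6.98, 7.08 and 6.89 under saline, with no overlap. Lgr5, the stem cell receptor, differed by 0.11 ± 0.17 and Sox9 by 0.22 ± 0.17. Saline array 1 was the lowest for Myc, Axin2, Lgr5 and Sox9, and the median of the list was 0.01 without it and -0.02 without saline arrays 1 and 2.

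Many mitotic genes share a pair of promoter elements, the CCAAT box bound by NF-Y and the cell cycle genes homology region, which takes part in switching the genes off in resting cells. Both elements were in 16 of the 20 promoter windows of the mitosis list (80%), against 6.95% of all windows. The 3 promoters shown are those, among the members of smallest p, that held both. Each runs 5′ to 3′ from 250 bases before to 50 after the start site, in RefSeq's GRCm38.p6, on the plus strand. Capitals mark CCAAT or its reverse complement ATTGG, and TTTGAA or its reverse complement TTCAAA, the core searched for the homology region.
Ttk, chr9:83834439-83834738: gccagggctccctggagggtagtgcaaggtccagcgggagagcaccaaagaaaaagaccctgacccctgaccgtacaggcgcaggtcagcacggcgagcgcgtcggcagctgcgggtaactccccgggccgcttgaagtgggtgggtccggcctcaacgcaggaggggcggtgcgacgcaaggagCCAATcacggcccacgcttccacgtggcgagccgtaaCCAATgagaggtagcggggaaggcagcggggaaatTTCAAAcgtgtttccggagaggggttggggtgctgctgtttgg
Bub1b, chr2:118597961-118598260: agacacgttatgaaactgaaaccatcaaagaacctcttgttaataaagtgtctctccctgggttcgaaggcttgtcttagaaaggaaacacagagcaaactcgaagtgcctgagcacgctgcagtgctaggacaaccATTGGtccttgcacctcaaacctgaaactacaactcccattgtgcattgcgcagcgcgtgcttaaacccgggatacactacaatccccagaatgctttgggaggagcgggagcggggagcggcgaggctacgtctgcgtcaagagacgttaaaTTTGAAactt
Prc1, chr7:80294201-80294500: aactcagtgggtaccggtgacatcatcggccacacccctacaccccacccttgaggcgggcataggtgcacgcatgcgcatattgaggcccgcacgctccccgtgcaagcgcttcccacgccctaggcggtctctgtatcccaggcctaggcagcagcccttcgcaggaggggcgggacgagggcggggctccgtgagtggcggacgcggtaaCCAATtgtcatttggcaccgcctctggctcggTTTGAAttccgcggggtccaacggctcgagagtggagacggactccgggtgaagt
Of the 23 tested mitosis genes 19 had a window in the RefSeq table. TTTGAA in either orientation was in 16 of their 20 windows (80%), against 17.9% of all 32851 windows and 2 of 18 windows (11.1%) of the replication genes. CCAAT in either orientation was in 95% of the mitosis windows, 72.2% of the replication windows and 37.4% of all windows, and in the 3 windows shown no match overlaps another. A match describes the letters of a window and is no evidence of binding. The window of Birc5 held neither motif and that of Bub1 held CCAAT alone, although both were among the lower members.

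Some lists of fat and sterol genes followed the arrays standing apart and others did not. All 19 lipid absorption genes lay below saline, with a median of -0.62, and the median was -0.09 without the 4 arrays rich in small-intestinal RNA. Small-intestinal enterocyte genes, 0 of 15 above saline, had a median of -0.49 with all arrays and -0.09 without those 4. Npc1l1 stood at 5.86, 5.95 and 6.02 under acetate, against 6.15, 8.73, 8.33 and 5.96 under saline, the high pair being arrays 2 and 3. Fatty acid synthesis genes (13 of 17 below) had a median of -0.12, and 0.01 without acetate array 1. Thrsp, which promotes lipogenesis, stood at 3.56, 4.04 and 4.39 under acetate, against 5.67, 5.13, 3.98 and 3.99 under saline. Its high values were those of saline arrays 1 and 2, which were also high in adipocyte transcripts such as Adipoq, adiponectin (3.53, 4.45 and 4.05 under acetate, against 5.54, 5.24, 3.90 and 3.65 under saline). Without saline arrays 1 and 2 the difference for Thrsp was 0.02 and the median of the fatty acid synthesis list -0.04.

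Cholesterol synthesis and uptake genes lay below saline for 18 of 19 tested, with a median of -0.14. The list averaged 8.29, 8.76 and 8.94 under acetate, against 8.81, 8.85, 8.57 and 8.93 under saline, and without acetate array 1 the median was 0.06. Insig1, the sterol-regulated brake on the pathway, stood at 9.09, 9.24 and 9.66 under acetate, against 9.80, 9.79, 9.24 and 9.53 under saline. Acetate arrays 1 and 2 were low for it and saline array 3 as low. Fatty acid oxidation genes (13 of 18 above saline) had a median of 0.04, and targets of the PPAR receptors (7 of 12 above) one of 0.01. The median for oxidation was -0.01 without acetate array 1, and that for PPAR targets ran between -0.14 and 0.08 with 1 array left out and was -0.06 without the 4 arrays rich in small-intestinal RNA. Angptl4, a lipase inhibitor that fatty acids induce, stood at 5.84, 5.43 and 6.27 under acetate, against 5.58, 5.24, 5.30 and 5.51 under saline, a difference of 0.44 ± 0.29 (SE). Pparg itself stood at 10.37, 10.01 and 9.97 under acetate, against 10.05, 10.02, 10.01 and 9.98 under saline.

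Among immune lists, the medians of acute inflammation and B cell genes followed single arrays, while that of interferon response genes kept its sign. Of 16 acute inflammation genes, 12 lay above saline, with a median of 0.13, which was -0.01 without acetate array 1. Il1b, interleukin 1 beta, stood at 6.64, 4.83 and 4.09 under acetate, against 4.40, 4.09, 4.22 and 5.25 under saline. Ccl3, a macrophage chemokine, stood at 6.75, 4.07 and 3.91 under acetate, against 4.04, 3.81, 3.79 and 4.35 under saline. Acetate array 1 alone was high for both. Socs3, the feedback inhibitor of cytokine signalling, stood at 6.16, 5.53 and 5.92 under acetate, against 4.91, 5.55, 5.40 and 5.67 under saline, a difference of 0.49 ± 0.22 (SE). A second probe set for Socs3 differed by 0.13 ± 0.14. Interferon response genes lay below saline for 21 of 24 tested, with a median of -0.15, and between -0.27 and -0.07 with 1 array left out at a time. The list averaged 6.71, 6.99 and 6.57 under acetate, against 6.97, 6.67, 7.13 and 6.89 under saline, so the array means overlapped. Against the same saline arrays its median was -0.11 under propionate and -0.18 under butyrate, with 1 of 24 above saline for each. Oas3, an antiviral sensor of double-stranded RNA, stood at 5.52, 5.71 and 5.03 under acetate, against 5.98, 5.59, 6.13 and 6.00 under saline. Acetate array 2 lay above saline array 2 for Oas3, so the groups overlapped. Of B and plasma cell genes 9 of 10 lay above saline, with a median of 0.37 and of -0.11 without acetate array 2, the highest of the 7 arrays for this list. Fcrlb and Blk, 2 of the 10 and both dim, had every acetate array above every saline array, as had 1.28% of all genes. The B cell surface gene Ms4a1 (CD20) stood at 3.54, 5.79 and 3.70 under acetate, against 3.79, 3.72, 3.98 and 4.19 under saline. Jchain, made by plasma cells, was the 1 member below saline, at -0.48 ± 0.26.

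Barrier genes were near saline. Goblet cell and mucus genes had 8 of 18 above saline and a median of -0.02, and Muc2, the main gel-forming mucin, differed by -0.02 ± 0.05 (SE). Tff3, the trefoil peptide secreted with it, stood at 12.14, 12.19 and 12.16 under acetate, against 12.55, 12.41, 12.24 and 12.32 under saline. The groups did not overlap, and the difference was -0.22 ± 0.08. Tight junction genes (11 of 16 below) had a median of -0.06. Cldn23, a claudin, stood at 6.94, 7.20 and 7.30 under acetate, against 7.51, 7.37, 7.58 and 7.30 under saline, a difference of -0.30 ± 0.14. Ion and water transport genes (13 of 23 above) had a median of 0.02, antimicrobial genes (7 of 19 above) one of -0.02, and ribosomal protein genes (15 of 30 above) one of 0.002. Xenobiotic metabolism genes lay above saline for 17 of 23, with a median of 0.05, and -0.02 without acetate array 1. Unfolded protein response genes lay below it for 15 of 17, with a median of -0.06, and 0.08 without acetate array 1. Hsp90b1, a chaperone of the endoplasmic reticulum, stood at 9.88, 10.46 and 10.52 under acetate, against 10.70, 10.61, 10.00 and 10.74 under saline. Acetate array 1 and saline array 3 were the low ones.

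**Figure D4:**
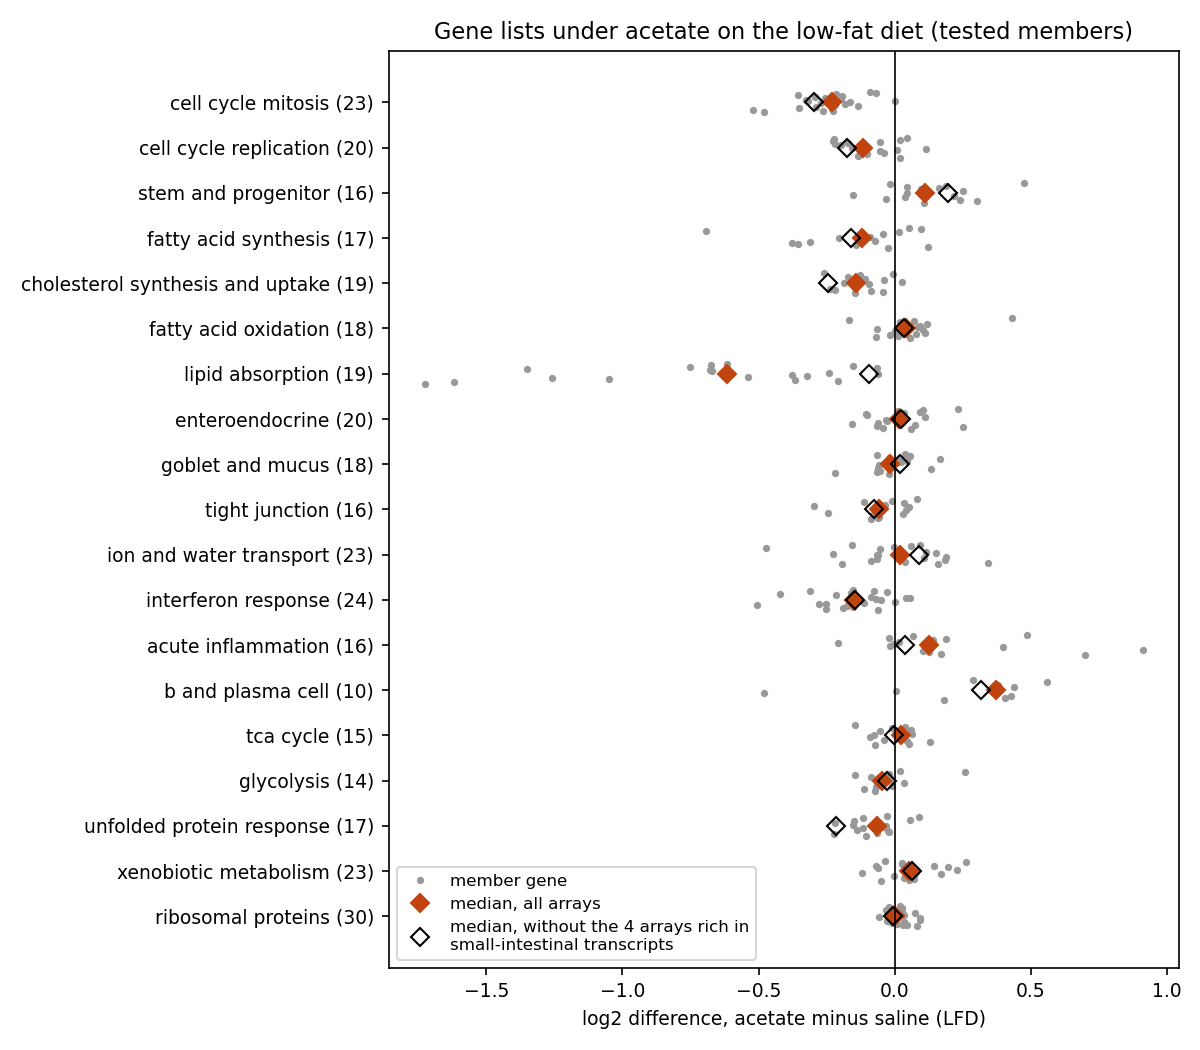
Log2 difference, acetate minus saline on LFD, for every tested member of 19 gene lists (grey points), with the median over all arrays (filled) and the median without the 4 arrays rich in small-intestinal RNA (open); the number of tested genes stands beside each name. The median of the lipid absorption list is -0.62 with all arrays and -0.09 without those 4, while that of the mitosis list is -0.23 and -0.30.

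The series asks whether the effect of the acids depends on dietary fat. The difference between the acetate effect on LFD and that on HFD passed the threshold for 0 of 12795 genes (0%, limma), with 108 genes at an unadjusted p under 0.05 (0.844%). Acetate against saline on HFD gave 0 genes (0%) and 321 at an unadjusted p under 0.05 (2.51%). For Mesp2 the difference was 0.37 ± 0.10 on LFD and -0.17 ± 0.10 on HFD (SE), 0.54 ± 0.14 between the diets. Pemt had -0.32 ± 0.09 on LFD and 0.07 ± 0.09 on HFD. Among other genes with the smallest p in this test, Cldn20, a claudin, had 0.27 on LFD and -0.23 on HFD. Pop7, a subunit of ribonuclease P, had 0.10 on LFD and -0.26 on HFD, and Cybrd1, a ferric reductase, -0.13 on LFD and 0.27 on HFD. None of these had an adjusted p below the threshold.

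Of the 24 genes of smallest p on LFD, none had an unadjusted p under 0.05 on HFD, and 16 had a difference of the same sign there. Myc was among these, at 0.47 on LFD and 0.24 on HFD. Over all 12795 genes the differences on the diets, which share no array, correlated with a Pearson r of 0.354 and a Spearman rho of 0.271. Without the 4 arrays rich in small-intestinal RNA, of which 2 are saline on LFD and 1 is saline on HFD, these were 0.110 and 0.117. The mitosis list had a median of -0.23 on LFD and -0.02 on HFD, where 5 of 23 lay above saline. Cholesterol genes had -0.14 on LFD and -0.29 on HFD, with 0 of 19 above saline there, and interferon response genes -0.15 on LFD and 0.12 on HFD. The difference between the diets was not tested for these lists.

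**Figure D5:**
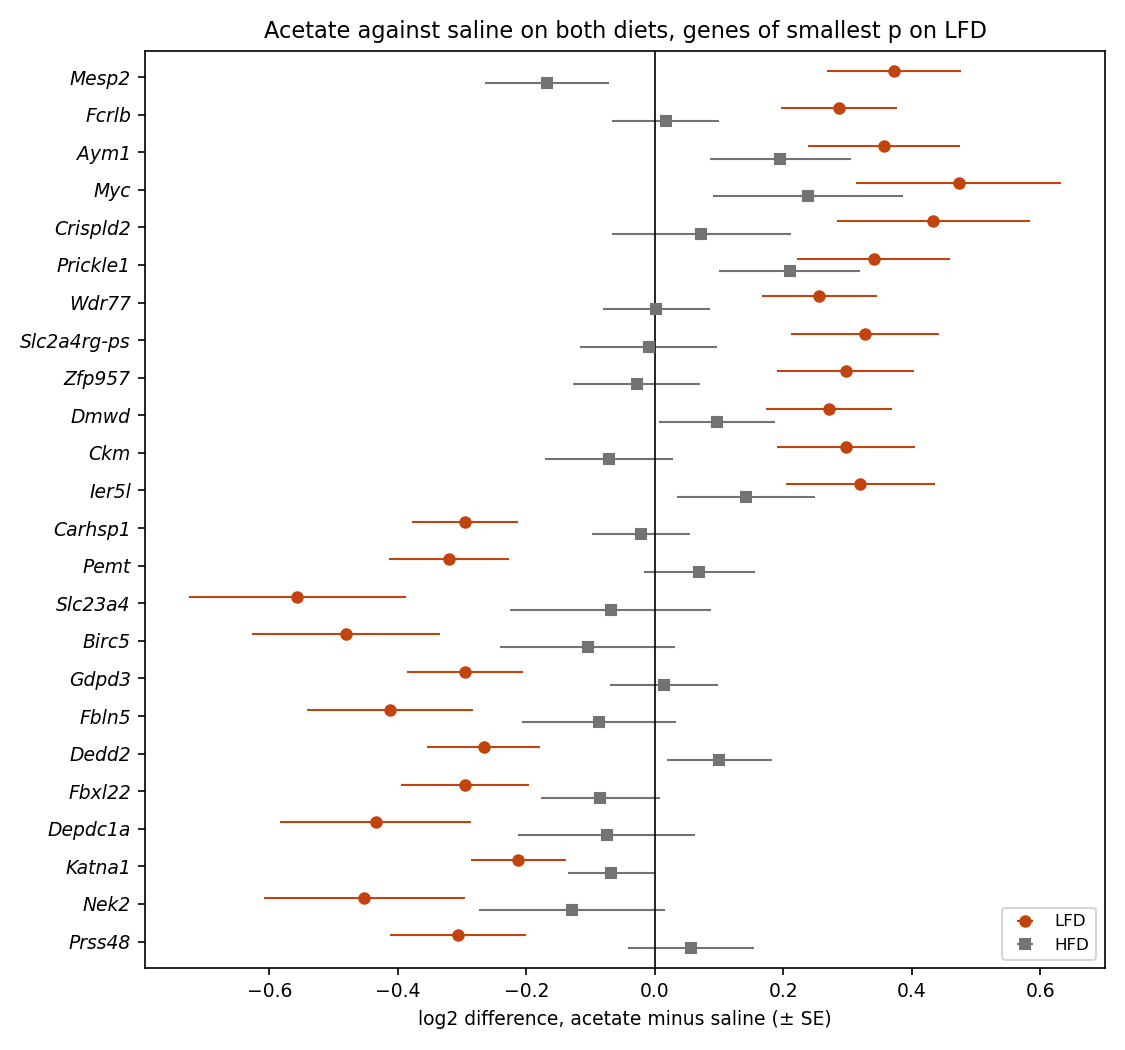
Log2 difference, acetate minus saline, on LFD (circles) and on HFD (squares), each with its standard error from limma, for the 12 genes of smallest unadjusted p above saline on LFD and the 12 below it. The genes were chosen by their LFD values. All HFD values lie within 0.24 of 0.

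Acetate was set against propionate and butyrate on LFD at the same dose, volume and time, in 2 pairs. The acids are straight-chain carboxylic acids that differ by added methylene groups, acetate being the shortest and butyrate the longest. Acetate differed from propionate in 0 of 12795 genes (0%, limma) at the adjusted threshold and from butyrate in 0 (0%). The smallest p adjusted over both pairs was 0.999987. At an unadjusted p under 0.05 there were 473 genes against propionate (3.7%), 196 higher and 277 lower under acetate, and 179 against butyrate (1.4%), 95 higher and 84 lower. Gng10, a G protein gamma subunit, lay at 0.38 for acetate minus propionate (95% interval 0.17 to 0.59) and 0.31 for acetate minus butyrate (0.11 to 0.52). Melk, a mitotic kinase, lay at -0.55 (-0.88 to -0.21) for acetate minus propionate and -0.44 (-0.77 to -0.10) for acetate minus butyrate. For these 2 genes the unadjusted intervals leave out 0 in both pairs. The largest difference among the genes of smallest p was that of Ciart, a clock repressor, at 1.13 (0.50 to 1.77) against propionate and 0.26 (-0.37 to 0.90) against butyrate. Mexis gave -0.54 (-0.87 to -0.21) against propionate, and Gpr55, a receptor for lysophosphatidylinositol, 0.35 (0.12 to 0.58) against butyrate. Each of these misses the adjusted threshold.

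The effects of the 3 acids against saline share the saline arrays, so they are given side by side for the genes above. Mesp2 differed from saline by 0.37 under acetate, 0.18 under propionate and 0.18 under butyrate. Carhsp1 differed by -0.30 under acetate, -0.19 under propionate and -0.09 under butyrate, and Acot12 by -0.42 under acetate, -0.10 under propionate and -0.24 under butyrate. Birc5 lay at -0.48 under acetate and at -0.15 under both propionate and butyrate. The median of the mitosis list was -0.23 under acetate, -0.004 under propionate and 0.002 under butyrate. Set directly against the other acids, Birc5 was at -0.33 (95% interval -0.63 to -0.03) for both acetate minus propionate and acetate minus butyrate. Bub1 was at -0.72 (-1.23 to -0.21) against propionate and -0.49 (-0.99 to 0.02) against butyrate. Gcg was at 0.15 (-0.16 to 0.46) against propionate and 0.19 (-0.12 to 0.50) against butyrate, and Ffar2 at -0.25 (-0.59 to 0.09) against propionate and -0.07 (-0.41 to 0.27) against butyrate. The intervals for Gcg and Ffar2 include 0 in both pairs and leave room for differences of up to 0.59 in size.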

How the data were processed

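RNA from colon scrapings was hybridised to single-colour whole-transcript arrays, 1 per sample. The authors deposited log2 intensity values, made with RMA per the submitters' processing notes; the sources used here give neither its version nor the genome build. The lowest value was 1.13 and the highest 13.8, medians of arrays spanned 5.14 to 5.19, and the number of arrays limits the precision. Of 35556 probe sets, 21218 had 1 gene symbol in the platform annotation, 1881 had several and 12457 were not listed. For the 1386 genes with several probe sets the one with the highest mean was used. Genes at an intensity of 20 or more on at least 3 of the 31 arrays were tested, 12795 in all.

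A linear model with 1 mean for each of the 8 groups was fitted over all 31 arrays with limma 3.58.1 in R 4.3.3, with a variance trend. Errors of differences are the fit's standard errors and pool the spread of all groups. P-values are two-sided and were adjusted with Benjamini-Hochberg over all genes tested, with a threshold of 0.05. The code was tested on simulated data. Named genes were the 12 of smallest p in each direction where fewer than 10 passed, the 8 largest without overlap in each direction, the 6 of smallest p in each direction of the diet and acid comparisons, up to 5 of smallest p in each list, and every tested gene of acetate transport, sensing and use. Clca4b and the markers Apoa1, Apoa4, Chga, Kif23, Lgr5, Mki67, Ms4a1, Muc2 and Pyy lie outside that rule and were added with their values known. The members and lists were chosen with earlier results of these data known. Lists are described by counts and medians, without a test. Same-numbered arrays of both groups, compared by their deviations from the group means, correlated with an r of 0.38, 0.03 and -0.12, so the numbers were not taken as pairs. Promoter windows came from RefSeq. The alternatives tried were other filters on dim probe sets, all probe sets, no variance trend, a robust fit, array weights, quantile normalization, only the groups compared, the replicate number as a block, and leaving out arrays.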

Additional observations from a re-analysis of the deposited data

Results flagged for a closer look

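In 143 genes and lists examined, 1 of the 4 saline arrays stood far from the other 3 in 7 cases, by a gap of more than 0.829 of the range of the group (Dixon's 95% criterion). Chance gives such a gap in about 1 of 20 groups. Saline array 3 was at 6.44 for Ffar2, against 6.72 to 6.77 on the other saline arrays, at 5.14 for Slc2a6, against 5.39 to 5.41, and at 4.32 for Prickle1, against 4.22 to 4.23. Saline array 2 was at 5.48 for Birc5, against 6.00 to 6.02. Saline array 1 was at 10.49 for Gna11, against 10.78 to 10.83, at 7.86 for Sox9, against 8.78 to 8.94, and at 6.21 for the mean of the tuft cell list, against 6.30 to 6.31.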

How the results depend on the processing

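Acetate against saline on LFD gave 0 genes at the adjusted threshold under every alternative run, and so did the diet difference and both comparisons with the other acids. With the replicate number as a block, the comparison also gave 0 genes, with 227 at an unadjusted p under 0.05 beside 193; the numbers do not pair the samples, since only those of replicate 1 correlated best with their own number. The count of 193, of 12795 genes tested, became 459 of 18820 genes without the filter on dim probe sets. It was 71 with a mean level of at least 6 and 493 over all deposited probe sets. These settings test different numbers of genes or probe sets, so their counts cannot be set against 193 directly. The count was 403 without the 4 arrays rich in small-intestinal RNA and 295 without saline arrays 1 and 2, high in adipocyte transcripts. The last and the all-probe-set settings were chosen after seeing the data. With 1 array left out at a time the count lay between 193 and 340. Without the 4 arrays rich in small-intestinal RNA the sign turned for Slc26a6 (0.020), Mttp (0.052), Lyz1 (0.42), Defa24 (0.74), Apoa1 (0.71) and Apoa4 (0.50), and the list medians became 0.13 for clock, -0.0088 for smooth muscle and -0.053 for T cell genes. With a mean level of at least 6, fewer genes were tested, and the median was -0.13 for fibroblast genes. The Paneth median became -1.28, the difference of Lyz1, and the B and plasma cell median -0.48. The latter is the difference of Jchain, the 1 member below saline, so it does not describe the list. Array weights gave -0.050 for clock genes. With 1 array left out, Ccl3 lay between -0.0065 and 1.41, Il1b between -0.027 and 1.25 and Sox9 between -0.034 and 0.33. List medians then lay between -0.11 and -0.0016 for antimicrobial, -0.11 and 0.57 for B and plasma cell, -0.077 and -0.025 for cell cycle brake, 0.0024 and 0.11 for clock, -0.076 and 0.044 for glycolysis, -0.019 and 0.059 for phospholipid and -0.062 and -0.027 for tight junction genes. Where no value above shows it, the cause was not tested. Dim genes, whose log2 levels lie near the filter of 4.32, are limited by signal over background.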

Other observations

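Other cell types in the scraping were set beside saline in the same way. Of 9 MHC class II genes, 5 lay above saline under acetate, with a median log2 difference of 0.01. T cell genes had 5 of 9 above saline and a median of 0.07. Il7r, the interleukin 7 receptor, stood at 4.23, 3.95 and 4.00 under acetate, against 3.68, 3.69, 3.77 and 3.83 under saline, without overlap. All of these Il7r values lie under the filter level of 4.32, near background. Of all genes, 1.28% had every acetate array above every saline array. Macrophage and dendritic cell genes had 9 of 12 above saline and a median of 0.07, and endothelial genes 6 of 9 and a median of 0.03. Fibroblast genes had 6 of 11 above saline and a median of 0.03. Tuft cell genes had 5 of 7 above saline and a median of 0.04. Genes of the distal colon had 6 of 11 above saline and a median of 0.14, which was -0.11 without acetate array 2, 0.30 without acetate array 1 and -0.27 without saline arrays 1 and 2, with Hoxb13, a gene of the distal gut, at 7.91, 10.00 and 9.27 under acetate, against 8.54, 9.39, 9.77 and 9.62 under saline. Acetate array 1 was lowest for Hoxb13, and also for Atp12a, the colonic proton pump, at 8.47, 11.33 and 10.54 under acetate, against 10.16, 10.78, 10.79 and 10.60 under saline, although another probe set for Atp12a differed by 0.05 ± 0.11 (SE). Clock genes had 8 of 15 above saline and a median of 0.02.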
